A study of Homo sapiens with 6 samples.

Results

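Nascent transcription was measured by BrU-seq in wild-type cells, and the authors' table gives 1 gene-body level for each of 9944 transcription start sites (TSSs). All 9944 of 9944 listed TSSs are described here, under 9913 gene symbols, with 61 TSSs sharing a symbol with another. RPE1, the line of the study's labelled libraries, is an immortalised human retinal pigment epithelium line. The study asks how transcription and replication are connected across the genome and what CFAP20, a cilium-associated protein, does in both. Its 6 labelled libraries are anti-TY ChIP-seq, 3 of RPE1 iCas9 p53/puro-dKO WT cells and 3 of the same background with CFAP20-KO + TY-CFAP20, and their values are not used here. The BrU-seq column is headed WT and mock. No sample label names the BrU-seq cells, and they are taken here to be RPE1. What mock was, and how many BrU-seq libraries stand behind the column, are not given in the sources used here. Every level is 1 value without replicate error, and every comparison below is a description of this column with no p-value. The levels of CFAP20 and CCNC are not analysed here.

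In BrU-seq, living cells take up bromouridine, which RNA polymerases build into the RNA being made, and the labelled RNA is captured and sequenced. Reads fall over introns as well as exons, so the signal along a gene body follows how much RNA is being synthesised there and depends less on RNA stability than steady-state RNA does. Genes of the translation machinery and genes induced by serum and stress are known for high synthesis rates in growing cells, the second group with short-lived transcripts.

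Each listed level multiplied by its gene's length and divided by 30 gave a whole number, within 0.001, for all 6325 TSSs with a value. A level is thus 30 times a whole number of units, divided by the gene length in bases. If a unit is one sequenced stretch of 30 bases, the level is the mean coverage of the gene body; the sources used here do not say so. The units summed to 12542351, with a median of 485 per TSS (quartiles 55 and 2163), and 67.9% of values rested on 100 or more units. Exact Poisson 95% intervals from these units are given below and take each unit as an independent count, which is not known. Small even numbers of units were more frequent than odd ones: 78 TSSs had 2 units and 86 had 4, against 59 with 3 and 44 with 5. If units are not independent, the intervals are too narrow, which was not tested. They cover counting error only, not the spread between cultures.

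Promoters of some of the highest genes are printed first as examples, with that of a gene with no listed level. So few sequences cannot show how strongly transcribed genes differ from those without a level. The printed stretches come from RefSeq (GRCh38.p14) and run from 120 bases before to 30 bases from the annotated start, with motif matches in capitals. Among the highest genes with a window, EEF1A1, PPP1R15A, EIF1 and the ribosomal protein gene RPL19 are shown, beside CRX, a photoreceptor transcription factor gene without a level. No window was matched for CYR61 and PLK2.
EEF1A1, chr6:73521003-73521152, minus strand: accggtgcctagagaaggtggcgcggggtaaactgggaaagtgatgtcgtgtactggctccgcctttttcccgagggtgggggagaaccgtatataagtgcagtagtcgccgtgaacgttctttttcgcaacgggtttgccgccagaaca
PPP1R15A, chr19:48872301-48872450, plus strand: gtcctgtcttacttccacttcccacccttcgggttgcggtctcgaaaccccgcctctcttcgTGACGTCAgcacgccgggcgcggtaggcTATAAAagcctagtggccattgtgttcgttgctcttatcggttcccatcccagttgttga
EIF1, chr17:41688765-41688914, plus strand: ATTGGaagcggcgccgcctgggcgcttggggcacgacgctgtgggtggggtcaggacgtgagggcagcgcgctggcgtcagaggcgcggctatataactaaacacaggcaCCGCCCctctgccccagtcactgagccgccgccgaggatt
RPL19, chr17:39200163-39200312, plus strand: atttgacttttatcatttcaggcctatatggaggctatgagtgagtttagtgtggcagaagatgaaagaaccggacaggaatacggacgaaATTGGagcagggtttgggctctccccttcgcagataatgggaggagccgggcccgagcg
CRX, chr19:47821817-47821966, plus strand: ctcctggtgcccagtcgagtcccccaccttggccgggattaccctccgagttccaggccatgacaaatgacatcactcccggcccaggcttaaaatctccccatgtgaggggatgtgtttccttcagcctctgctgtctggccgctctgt

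PPP1R15A held a CRE (TGACGTCA, the site of CREB and ATF factors) and a TATA box (TATAAA), while EIF1 and RPL19 held a CCAAT box on the reverse strand and EIF1 also a GC box (GGGCGG, reverse strand). EEF1A1 and CRX had no exact match to any of the 8 motifs searched in the printed stretch. For the TATA box the search took the letters TATAAA alone. The EEF1A1 and EIF1 stretches hold the close form TATATAA, which was not counted, so neither can be said to lack a TATA box. The RefSeq start lay 0 bases from the listed start for EEF1A1 and RPL19, 8 for EIF1, 29 for PPP1R15A and 98 for CRX. Over the whole 300-base windows, EEF1A1, PPP1R15A and EIF1 each had 24 CpG dinucleotides, RPL19 had 14 and CRX had 8.

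Listed levels above 0 ran from 1.4e-04 to 1187. Of the 9944 TSSs, 6325 had a value (63.6%), 3619 were listed as missing (36.4%) and 4 were listed at 0. The median of the listed levels was 0.587, with quartiles of 0.0757 and 2.35. The 90th percentile was 7.90 and the 99th was 66.6. Levels above 10 were reached by 515 TSSs and levels above 100 by 31, while 541 lay under 0.01. The highest 1% of listed values, 63 TSSs, held 36.9% of the summed level. Counted in units, which weights a gene by its length, the 63 TSSs with the most units held 19.9%.

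**Figure D1:**
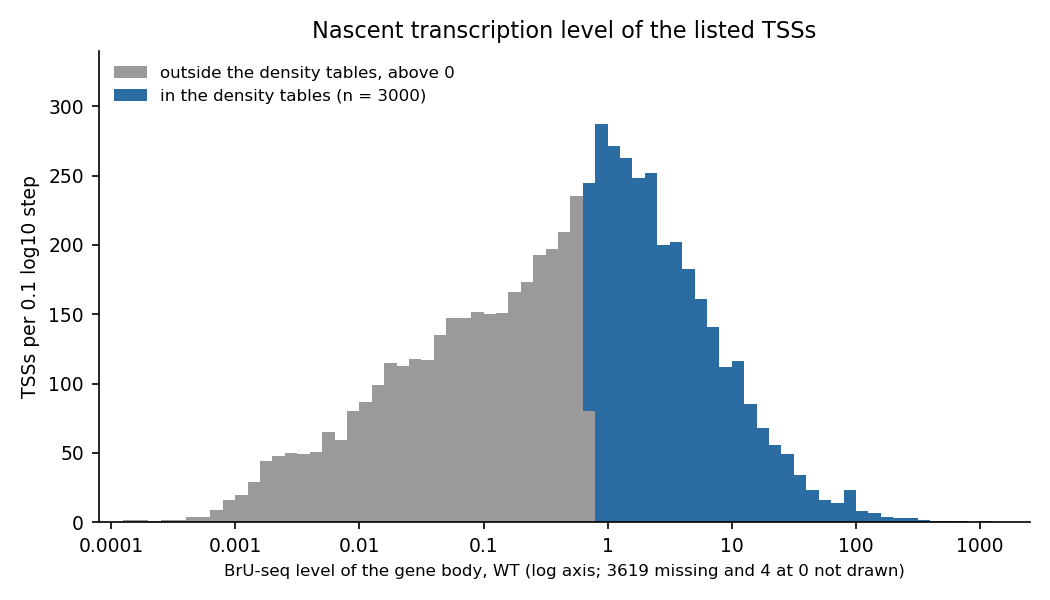
Histogram of the BrU-seq level (x axis, log scale, 30 times the units per base) against the number of TSSs per step (y axis); blue bars are the 3000 TSSs of the density tables and grey bars the others above 0. The blue bars hold the whole upper side down to a level of 0.693, and 3619 missing values and 4 values at 0 are not drawn.

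CYR61, a secreted matrix-associated protein whose gene is an immediate-early target of serum and YAP signalling, had the highest level of all. Its value was 1187 (95% counting interval 1181 to 1194), which was 2023 times the median. The gene starts at chr1:85580761 on the plus strand and is 3.20 kb long. EEF1A1, the elongation factor that brings aminoacyl-tRNA to the ribosome, followed at 642 (638 to 645), and PPP1R15A, which directs phosphatase PP1 to the initiation factor eIF2, at 502 (498 to 506). PLK2, a polo-like kinase induced by serum, had 411 and EIF1, which takes part in start codon selection, had 374. None of these intervals overlapped with the next.

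The 6th to the 15th ranks mixed housekeeping with signal-induced genes. RPL19, a protein of the large ribosomal subunit, reached 338, and LGALS1, which encodes galectin-1, reached 279. MYC, the growth-promoting transcription factor, stood at 252.4 and ZFP36L1, which binds AU-rich RNA and promotes its decay, at 252.2, and their counting intervals overlapped (250.1 to 254.8 and 250.1 to 254.4). DNAJB1, a co-chaperone of HSP70, had 225. NFKBIA, the inhibitor of NF-kB, had 221, and DKK1, a secreted WNT antagonist, had 217. RPS14 of the small ribosomal subunit had 184, and the stress gene GADD45A had 171. Of the 15, 6 belonged to the genes highest when only genes of 5 kb or more were ranked, and 9 stayed among the 15 highest by units.

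Among genes of 100 kb or more, ZMIZ1, a transcriptional co-regulator of the PIAS family, stood apart. Its level was 33.0 over 247 kb, and its 272371 units were the most of any TSS, above CYR61 with 126723 and EEF1A1 with 112953. The next long genes were SH3BP4, an endocytic adaptor, at 10.7 and EVC, a ciliary component of Hedgehog signalling, at 7.60. MYOF, a membrane-repair protein, had 6.66. By units, PLK2 (86061) and the phospholipid-binding annexin gene ANXA2 (75519) came next after EEF1A1.

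At the other end, the lowest levels above 0 belonged to long genes. THEMIS, a T cell signalling protein, had 1 unit over 210 kb (level 1.4e-04), and NELL2, a secreted neuronal protein, had 2 units over 368 kb (level 1.6e-04). At 1 or 2 units their order cannot be read. The longest gene with a level above 0 was GALNTL6, 1228 kb long, at 0.00799 with 327 units.

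The 4 TSSs listed at 0 were C2orf78, RP11-774O3.3, PTENP1-AS and CTD-2227I18.1. Taking 3 units as the one-sided upper limit that a count of 0 allows, this is a level of up to 0.00273 for C2orf78 (33.0 kb) and up to 0.0277 for RP11-774O3.3 (3.25 kb), with the other two between them. Very low values were rare in the table: 4 TSSs had 0 units and 15 had 1 unit, against 78 with 2 and 86 with 4. The sources used here do not say what a missing value stands for. The missing TSSs were short and often non-coding by name. Their median gene length was 10.2 kb, against 23.5 kb for TSSs with a value. Clone-style, LINC or antisense symbols made up 56.8% of the missing TSSs and 25.04% of those with a value. Even so, 112 missing TSSs belonged to genes of 100 kb or more, the longest being LINGO2 (722 kb), UNC13C (621 kb) and FAM135B (367 kb), and SCGB2A2, the shortest gene by the authors' length (3.00 kb), was missing too.

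The relation to gene length depended on how missing values were read. Over the 6325 listed values, level fell with length across genes (Spearman rho -0.347), and within the 3000 highest it did so too (rho -0.413). With missing values set to 0 the sign turned, to a rho of 0.123 over all 9944 TSSs. The number of units was nearly unrelated to length (rho 0.102, 6325 TSSs). All points share 1 measurement and the level has length in its denominator.

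Genes of 3 to 5 kb had both the highest median level and the largest share of missing values. Their median was 1.87, and 57.6% of their 1363 TSSs had none. From there the median fell class by class, to 0.975 at 5 to 10 kb, 0.820 at 10 to 20 kb and 0.712 at 20 to 50 kb. It was 0.328 at 50 to 100 kb, 0.224 at 100 to 200 kb and 0.0660 above 200 kb. The missing share fell along the same classes, from 57.6% to 10.5%. As a result, the share of TSSs among the 3000 highest was largest in the middle, 36.6% at 20 to 50 kb, and smallest above 200 kb, 8.44%, with 28.0% at 3 to 5 kb.

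**Figure D2:**
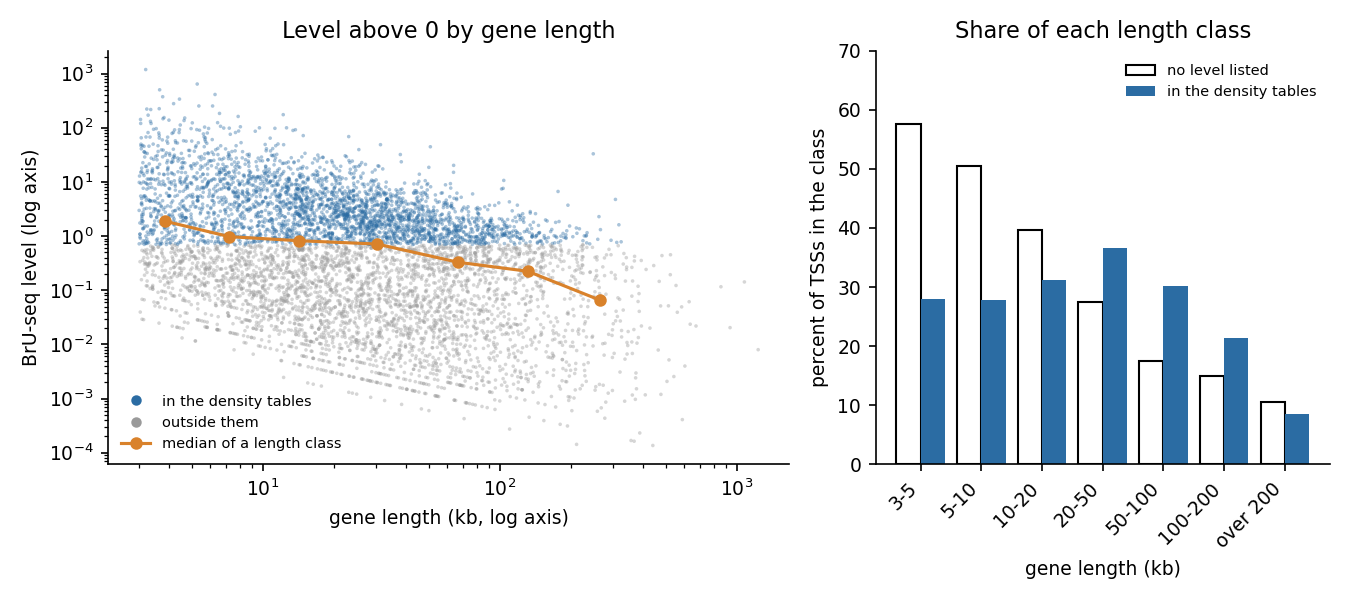
Left, BrU-seq level of each TSS above 0 against gene length, both on log axes, with the median of each length class in orange; right, percent of the TSSs of a length class that had no level (white) or were in the density tables (blue). The class median falls from 1.87 to 0.0660 while the share without a level falls from 57.6% to 10.5%.

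The density tables of the series hold 3000 TSSs, and these were exactly the 3000 highest BrU-seq levels (30.2% of all TSSs). Their higher level is thus how they were picked and is no finding. The lowest inside were the clone-named genes RP11-91P24.6 at 0.693 (85 units) and RP11-112J3.16 at 0.693 (195 units). Just outside stood TNNC2, a fast-muscle troponin, at 0.690 (95 units) and PRR16 at 0.689 (5125 units). The counting intervals of these 4 border values overlapped. Each of the 3000 rested on at least 72 units.

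The 3000 and the rest also differed in the kind and size of gene, although size enters the level through its denominator. Protein-coding genes made up 84.2% of the 3000 and 50.5% of the other 6944 TSSs, by the GENCODE biotype (9728 of 9944 TSSs matched). Clone-style, LINC and antisense symbols made up 14.5% and 46.2%. The median gene was 18.3 kb among the 3000 and 16.6 kb in the rest, but 31.0 kb in the rest with a value. The direction of the length difference therefore turned with the choice of the rest, the ratio being 1.10 against all others and 0.589 against those with a level above 0. It was 0.984 when clone-style, LINC and antisense symbols were left out. On the plus strand 31.2% of TSSs were among the 3000 and on the minus strand 29.1%.

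Long non-coding RNA genes were transcribed at lower levels than protein-coding genes in this column. Of 3545 lncRNA TSSs, 43.7% had a value, with a median of 0.148, and 11.5% were among the 3000. Of 6037 protein-coding TSSs, 76.5% had a value, with a median of 0.889, and 41.9% were among the 3000. Named antisense RNA genes lay between them, with 106 of 172 listed and a median of 0.497, whereas 213 of 484 LINC genes were listed, with a median of 0.0609. The sources used here do not say whether reads were counted by strand, so an antisense gene and its overlapping partner cannot be told apart.

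The highest non-coding genes ranked below the 15 highest levels of the table. RP11-575L7.8 had 96.5, DLGAP1-AS1 had 91.4 and RP11-127L20.3 had 80.3. LINC00657, known as NORAD, which binds PUMILIO proteins, had 52.9, and LINC00909 had 24.4. Within the antisense genes, IQCJ-SCHIP1-AS1 followed DLGAP1-AS1 at 40.9.

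Promoter sequence varied with the level. RefSeq windows from 250 bases before to 50 bases after the start were matched to 3862 TSSs, of which 2851 had a value and were cut into 5 classes of equal size by level. The median number of CpG dinucleotides per window was 5 for TSSs without a value and 7 in the lowest class. It was 17, 24, 26 and 25 in the following classes up to the highest. Most of the increase thus lay below the middle class, whose median level was 0.874, while the highest class had a median level of 9.66.

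**Figure D3:**
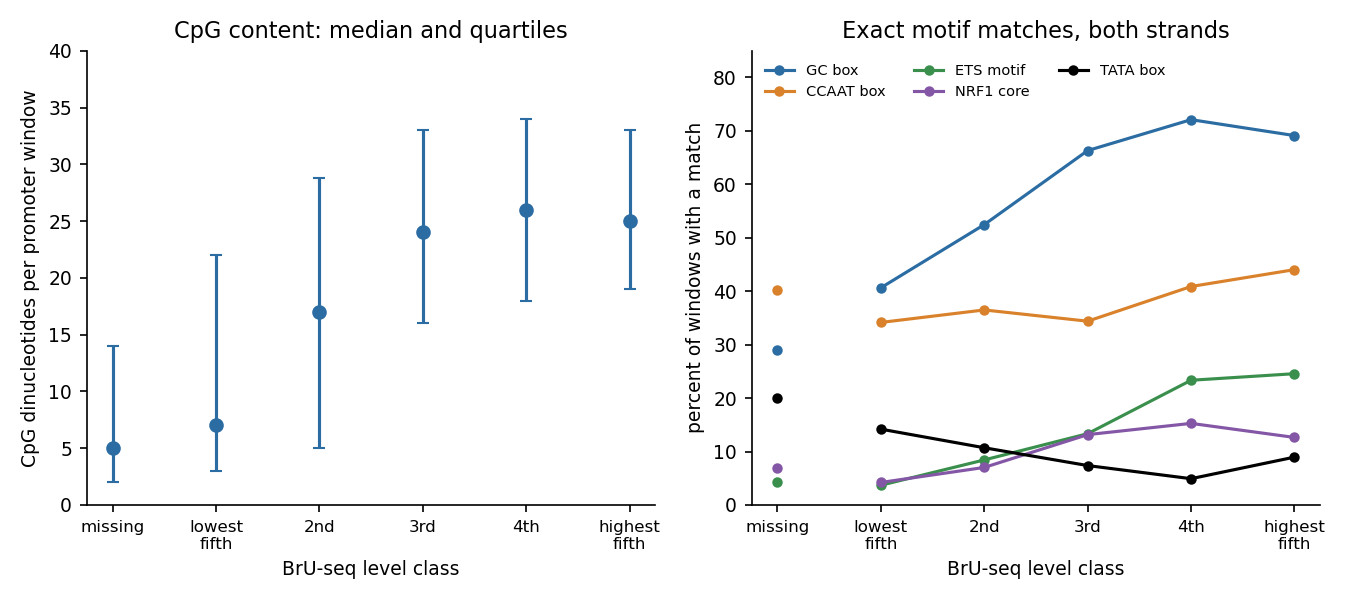
Left, CpG dinucleotides per 300-base promoter window (points, medians; bars, quartiles) by BrU-seq class; right, percent of windows with an exact match to 5 of the motifs. CpG medians go from 5 in TSSs without a level to 25 in the highest class, and TATA box matches from 20.0% to 8.95%.

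Motifs were searched as exact letters on both strands, and matches of different motifs may overlap. The GC box (GGGCGG, bound by SP and KLF factors) was in 52.0% of all windows, in 29.0% of those without a level, 40.6% of the lowest class and 69.1% of the highest. The ETS motif (CCGGAAG) was in 11.9% of all windows, and went from 3.68% in the lowest class to 24.6% in the highest. The NRF1 core (TGCGCA) was in 9.50% of all, rising from 4.20% to 12.6% between the end classes. The YY1 motif (AAGATGGC) was in 3.00% of all, 1.40% in the lowest and 4.91% in the highest. TATAAA went the other way, from 20.0% without a level and 14.2% in the lowest class to 4.91% in the 4th class, then 8.95% in the highest (12.04% of all).

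The CCAAT box (bound by NF-Y) was in 38.6% of all windows, 40.2% of those without a level, 34.2% of the lowest class and 44.04% of the highest. The CRE was in 2.62% of all, 0.701% of the lowest class and 4.21% of the highest. The E box (CACGTG) was in 8.65% of all, 6.48% of the lowest class and 11.2% of the highest. CpG content rose along the same classes, and its part in the motif shares was not tested. With the last 100 bases before the start alone, the difference between highest and lowest class went from -5.24 to -1.39 percentage points for the TATA box, from 4.75 to 0.183 for the E box, and from 3.51 to -0.175 for the YY1 motif. The CCAAT difference went from 9.88 to 3.54 on the given strand alone.

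Gene groups were read by role, each against the share of 30.2% of all TSSs among the 3000. Most groups hold mainly protein-coding genes, for which the share was 41.9%, so this is the closer comparison for them. A percentile below is a rank among all 9944 TSSs, with missing values lowest. Families were taken by symbol, so near-identical copies and pseudogenes are uncertain where reads could be shared. Median percentiles were 75 or more in 18 gene groups. With percentiles taken anew, the number was 15 over values above 0 and 12 over genes of 10 to 100 kb, where the smallest groups drop out.

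Cytosolic ribosomal protein genes had the highest median of the translation groups, while EEF1A1 and EIF1 stood above each of them. Of 19 listed, 17 had a value and all 17 were among the 3000, with a median of 92.4. After RPL19 and RPS14 came RPL27 at 151 and RPL11 at 136. RPL39L, a paralogue of RPL39 in a 60.0 kb gene, was lowest at 0.729, and RPS27L had 7.89. The pair without a value, RPS4Y1 and RPS4Y2, lies on chromosome Y, while their X-linked counterpart RPS4X had 92.4. The high levels lay in short genes, the median length of the group being 5.90 kb. Over genes of 10 to 100 kb its median percentile was 67.4, against 99.6 over all lengths. That setting keeps RPL22 at 29.0, RPL14 at 27.8, RPL39L and the pair on chromosome Y.

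Messenger RNAs of ribosomal proteins are known to begin with a run of pyrimidines that controls their translation. Among the 10 ribosomal protein windows, 6 had a run of at least 5 C or T over the annotated start, against 7.33% of all 3862 windows and 10.5% of the highest class. The starts of 4 of the 6, with the run in capitals and 15 bases on either side of the step into the transcript, are shown beside RPL11, where the annotated start had no such run.
RPS14, chr5:150449725-150449754, minus strand: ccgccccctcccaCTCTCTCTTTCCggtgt
RPL26, chr17:8383179-8383208, minus strand: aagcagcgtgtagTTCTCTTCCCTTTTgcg
RPS24, chr10:78033848-78033877, plus strand: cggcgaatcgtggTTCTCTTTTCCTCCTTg
RPL14, chr3:40457324-40457353, plus strand: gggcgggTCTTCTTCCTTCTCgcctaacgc
RPL11, chr1:23691764-23691793, plus strand: cgcctcctggcccataaggccctcggccgg

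The runs over the start were 12 bases in RPS14, 14 in RPL26, 16 in RPS24 and 14 in RPL14. Their levels were 184, 103, 98.8 and 27.8. RPL19 had none at its annotated start and the highest level of the family.

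The other translation groups had lower medians. Translation initiation and elongation factors had values for 16 of 19, with a median of 7.55 and 14 among the 3000. EEF1A1 and EIF1 lay far above the next member, EIF3D of the eIF3 complex at 23.2, and EIF4E3, a cap-binding paralogue, was lowest at 0.0204. All 18 mitochondrial ribosomal protein genes had a value, and 17 were among the 3000 (median 6.15). They ran from MRPL1 at 0.633 in a 90.3 kb gene to MRPL40 at 23.9 and MRPL11 at 29.0.

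Genes of RNA processing were also mostly among the 3000. For hnRNP and SR splicing proteins this held for 11 of 12 (median 21.1), with SRSF3 at 97.6 and SRSF7 at 87.0, and SRSF12 lowest at 0.0325. The 5 snRNP and spliceosome proteins ranged from PRPF3 at 4.07 to SNRPE at 11.4 and PRPF38B at 12.5. DEAD and DEAH box helicases had values for 16 of 18 and 12 among the 3000 (median 3.49). DDX56, which acts in ribosome assembly, led at 31.9, DDX17 followed at 17.7, and DDX43, a testis-expressed member, was lowest at 0.00920.

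The transcription machinery itself was listed with few members. All 4 RNA polymerase II genes were among the 3000, from POLR2M, which encodes the Gdown1 protein, at 5.94 to POLR2J3 at 19.7 and POLR2G at 20.4. Of 7 Mediator genes 6 were (median 8.10), with MED10 at 25.8 and MED18 at 13.6, and MED27 in a 220 kb gene was lowest at 0.636. ZNF zinc finger genes, many of which encode DNA-binding repressors, were the largest coding family. Of 221 listed, 192 had a value (median 1.47) and 137 were among the 3000, 62.0%. ZNF703 had the highest level at 57.5 and ZNF629 followed at 32.5, and ZNF679 with 1 unit was lowest. The 109 on chromosome 19, where these genes form clusters, had a median of 1.29 and the 112 elsewhere 1.77.

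Respiratory chain and ATP synthase genes were nearly all transcribed above the border. Of 31 listed, 30 had a value (median 6.28) and 29 were among the 3000. UQCR10, a small subunit of complex III, led at 142, and the ATP synthase c-subunit gene ATP5G1 had 47.1. COX4I2, an isoform subunit of complex IV, was lowest at 0.0506 against 26.3 for COX4I1, and COX7B2 was missing.

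In protein turnover and folding, high and low members stood side by side. Proteasome subunits were among the 3000 in 10 of 11 cases (median 6.85), led by the ATPase PSMC3 at 46.6 and PSMD2 at 40.9. PSMA8, the testis-specific alpha subunit, was lowest at 0.0308. Ubiquitin-conjugating enzymes had a median of 3.03 with 8 of 11 among the 3000. UBE2S, which extends chains for the anaphase-promoting complex, had 104, UBE2T had 10.7 and UBE2U 0.0155. Ubiquitin-specific proteases were lower (median 1.08, 9 of 17 among the 3000), with USP1 at 10.9, USP39 at 9.91 and the X-linked USP26 at 8.3e-04 with 2 units. Heat shock proteins and chaperonins had a median of 2.94 and 14 of 17 among the 3000. HSP90AA1, the inducible cytosolic HSP90, came after DNAJB1 at 41.6, and DNAJC5B was lowest at 0.0194.

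Genes of origin licensing and the replisome were all among the 3000, 14 of 14, with a median of 4.70. MCM5 of the replicative helicase had 19.4, CDC6, which loads it, had 15.1, and ORC5 of the origin recognition complex was lowest at 0.897. The pair of replication-dependent histone genes listed, HIST1H4H and HIST1H3E, had 112 and 81.4. Their transcripts are much shorter than the listed lengths of 4.48 and 3.28 kb, so the level averages over sequence outside the histone message. Mitotic kinesins led their family, KIF23 at 7.18 and KIF11 at 3.53, whereas KIF25 had 0.00457 and 7 of 13 kinesins were among the 3000.

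Immediate-early genes, which respond to growth factors within minutes, stood beside the ribosomal protein genes in level. Of 30 on the list 15 were in the table, all 15 had a value and 14 were among the 3000, with a median of 82.2. Besides CYR61, MYC and ZFP36L1, EGR1 had 154, MCL1 123, DUSP5 91.9 and KLF6 86.2. FOS had 26.1, FOSB 7.53 and EGR2 1.40, and ATF3, over a 55.4 kb gene, was lowest at 0.611.

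Most p53 target genes of the table had a level. The ChIP-seq libraries of the study are labelled p53/puro-dKO, and no label gives the p53 status of the BrU-seq cells. Of 8 in the table, 7 had a value (median 5.42) and 5 were among the 3000. GADD45A had 171, AEN, an exonuclease gene, had 30.4, and BAX had 16.3. SESN2 had 5.42, TIGAR 0.963, FDXR 0.522 and ZMAT3 0.261, and SPATA18 was missing. What p53 contributes was not tested.

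**Figure D4:**
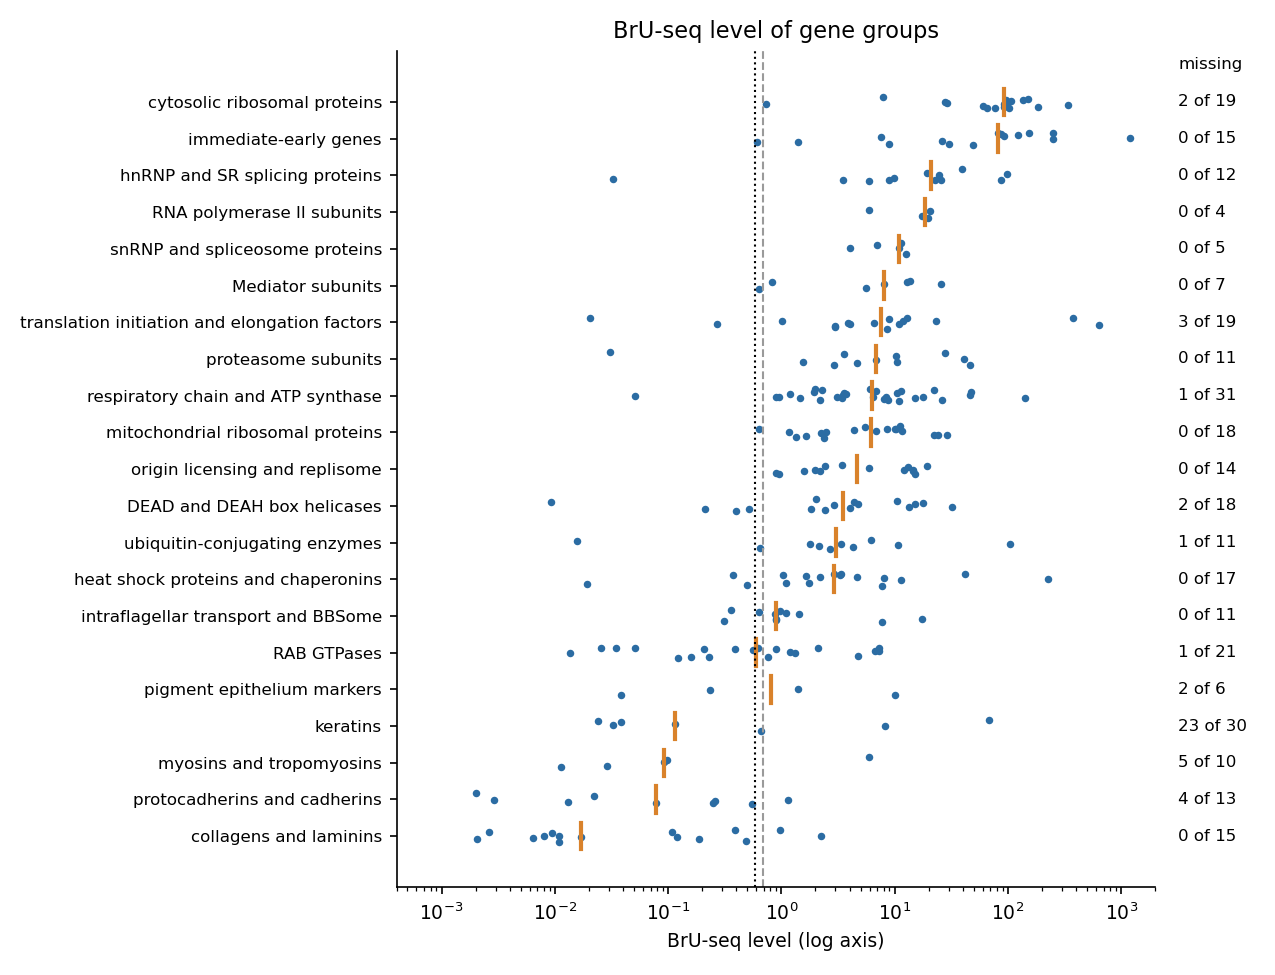
BrU-seq level (x axis, log scale) of each member with a value, by gene group (rows); orange ticks are group medians, the dotted line is the median of all listed levels (0.587) and the dashed line the lowest level in the density tables (0.693). Counts at the right give members without a value, such as 23 of 30 keratins; of the groups drawn, ribosomal protein and immediate-early genes have the medians farthest to the right, 92.4 and 82.2.

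Markers gave a mixed reading of the cell type. Of 6 listed pigment epithelium genes 4 had a value: the transcription factors OTX2 and MITF had 10.0 and 1.40, while RLBP1 and LRAT of the visual cycle had 0.235 and 0.0382. RPE65, the isomerase that defines mature pigment epithelium, and TTR were missing. Among neuron and photoreceptor genes, SNAP25 had 0.375, and CRX was missing. Of blood and endothelial genes, CDH5 had 0.250, KDR 0.0274 and SPI1 0.0114, and CD3E was missing. The muscle gene TNNT1 and the lung gene SFTPB had 1.95 and 0.852, above RLBP1, and the liver gene ALB had 0.0192. USP39, at 9.91, lies close to SFTPB on chromosome 2 and is transcribed towards it. Reads running past the end of USP39 cannot be told apart from those of SFTPB.

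Most members of tissue and developmental families were low or missing, though a few were high. Of 30 keratins 7 had a value and 2 were among the 3000: KRT80 stood alone at 68.6 and KRT34 had 8.15, while KRT85 was lowest at 0.0241. KRT19 had 0.115, and KRT14 and KRT17 were missing. KRT8 and KRT18 were not among the listed TSSs, so the group says nothing about them. Of 6 HOX genes, HOXB9 had 43.8 and HOXC8 16.3, and the other 4 were missing. A single one of 9 olfactory receptor TSSs had a value, OR51E2 at 0.148. Potassium, sodium and calcium channels had a median of 0.0791 with 5 of 50 among the 3000, and KCNN4 had 7.11.

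All 15 collagen and laminin genes had a value, with a median of 0.0172, and 2 were among the 3000, COL12A1 at 2.24 and COL1A1 at 0.980. Their median gene length was 90.4 kb. Of 7 integrins 2 were among the 3000, ITGA5, the fibronectin receptor subunit, at 18.8 and ITGA11 at 1.23. Protocadherins and cadherins had a median of 0.0786, with PCDH7 highest at 1.14, and among myosins and tropomyosins MYO1C at 5.90 was the highest, ahead of MYH15 at 0.0981.

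Membrane traffic, transporter and cilium groups had medians from 0.385 to 0.898, beside 0.587 for all listed levels and 0.889 for protein-coding genes. Shares among the 3000 were 33.3% for solute carriers, 42.9% for RAB GTPases and 46.7% for TMEM genes. The cilium group had 72.7%, and protein-coding genes had 41.9%. RAB GTPases had values for 20 of 21 (median 0.591) and 9 among the 3000, RAB13 at 7.32 and RAB32 at 7.20 leading and RAB19 at 0.0135 lowest. Of 126 solute carriers 97 had a value (median 0.385) and 42 were among the 3000, with the zinc transporter SLC39A13 at 22.8 and SLC37A4 at 15.1. TMEM genes had values for 62 of 75 (median 0.798), TMEM14C leading at 36.2. All 11 intraflagellar transport and BBSome genes had a value (median 0.898) and 8 were among the 3000, from IFT81 at 0.314 to IFT22 at 7.67 and BBS10 at 17.5.

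Chromosomes differed in how many of their TSSs were among the 3000. On chromosome Y all 65 TSSs were missing. Genes on Y, such as EIF1AY, DDX3Y and USP9Y, were kept as members without a value in the gene groups above. Apart from Y, the share was lowest on chromosome 4 (20.3%), X (20.9%) and 18 (21.7%), and highest on 15 (36.1%), 19 (40.7%) and 22 (48.1%). Non-coding names made up 63.7% of the TSSs on chromosome 18 and 14.1% on chromosome 19. Over protein-coding genes alone, the share was 23.2% on X, 32.0% on 4 and 35.6% on 18, and 45.0% on 19, 54.5% on 15 and 60.9% on 22, so X was lowest and 22 highest, leaving out Y. By median percentile 22 was also highest, under each of the 4 alternatives run.

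**Figure D5:**
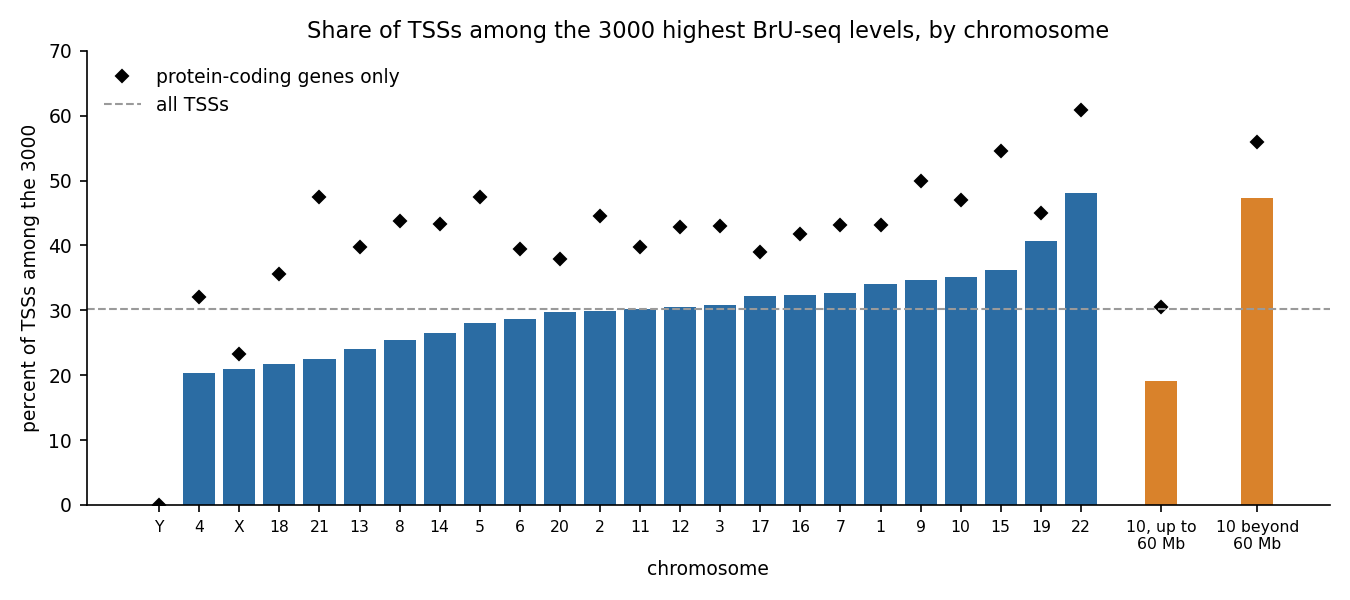
Percent of a chromosome's TSSs that were among the 3000 (bars, in ascending order) and the same over protein-coding genes (diamonds); the dashed line is the share of all TSSs, 30.2%. The orange bars split chromosome 10 at 60 Mb, with 19.1% before and 47.3% beyond it.

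On chromosome 10 the shares differed along its length. RPE1 cells are known to carry an additional copy of the distal long arm. Beyond 60 Mb, 113 of 239 TSSs were among the 3000 (47.3%), against 35 of 183 up to 60 Mb (19.1%) and 30.2% on the other chromosomes without Y. The median level was 1.25 beyond 60 Mb, 0.311 up to it and 0.578 elsewhere. Over protein-coding genes the shares were 56.0%, 30.4% and 41.9%. Non-coding names also differed, at 28.0% beyond 60 Mb and 47.0% before it. DKK1 lies before the border; ZMIZ1, PPIF, a mitochondrial cyclophilin at 162, RPS24 and MYOF lie beyond it. No copy number is in these values, and its part in the levels was not tested.

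Neighbouring starts were rare, since no pair in the table was closer than 2015 bases and the median gap was 159 kb. Within 10 kb there were 188 divergent pairs, pointing apart, of which 46 had both TSSs among the 3000, 58 had one and 84 had none. For a TSS among the 3000 in such a pair, the neighbour was among them in 61.3% of cases, against 30.2% of all TSSs. Levels of the partners had a Spearman rho of 0.170 across the 111 pairs with values for both, and the median fold between partners was 7.77. In the 58 pairs on the same strand, the neighbour of a TSS among the 3000 was among them in 60.0% of cases. Their rho was 0.486 across 22 pairs, with a median fold of 4.05. The share of the 3000 among the TSSs of each kind of pair was not computed and need not be 30.2%. The 61.3% and 60.0% therefore lack a baseline of their own, and the orientations cannot be compared by them. Reads running past a gene's end into the next cannot be told apart from the next gene's own in such pairs.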

How the data were processed

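The authors deposited a table of 9944 TSSs with a BrU-seq signal per gene body in WT cells, the gene length and the gene name, and 2 density tables of 3000 TSSs that repeat the signal. The sources used here do not say whether the BrU-seq signal was averaged over libraries, scaled or counted by strand. The submitters' processing notes name STAR 2.7.7a, BWA 0.7.17, SAMtools 1.11, HOMER 4.8.2, Trim Galore 0.6.5, R 4.0.5 and the build hg38, without their roles.

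The signal was used as deposited, with no pseudocount or filter. Starts are 1-based, from the listed position plus 1 on the plus strand. Signal times length over 30 bases gave the units, with exact Poisson 95% intervals and a floor of 3 units. Rank correlations are Spearman's, across genes, which are not replicates. Biotypes came from GENCODE by gene identifier. RefSeq promoter windows were matched by symbol or synonym (5381 TSSs) and kept within 100 bases of the listed start (3862).

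Named genes were the 15 highest levels, the 5 highest of 100 kb or more, the 3 highest non-coding names, the 3 lowest above 0, the longest and the shortest gene, 2 on each side of the border of the 3000, and in each group the 2 highest and the lowest. Some genes that these rules take are not reported here. Genes named beyond these were chosen after their values were seen, as were the 60 Mb border, the 10 kb limit for neighbours, the genes with the most units, the pyrimidine runs, the floor, and the leaving out of antisense symbols and KIF1BP from families. Members, lists and rules were chosen with earlier results of these data known. The lists also held snoRNA host genes, of which 0 were in the table. Columns of per-sample values that could not be mapped numbered 0. Alternatives changed the reading of missing values, the TSSs used, the gene lengths and the motif window. Calculations were tested on simulated levels. The tools were pandas 2.3.3 and numpy 2.4.6 under Python 3.11.15, with scipy 1.17.1 for intervals and correlations and matplotlib 3.10.9 for plots.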

Additional observations from a re-analysis of the deposited data

How the results depend on the processing

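Setting missing values to 0 turned the relation of level and length from a rho of -0.347 to 0.123, lowered the median level from 0.587 to 0.0523 and raised the share of the summed level in the highest 1% of TSSs from 36.9% to 43.8%. Leaving out clone-style, LINC and antisense symbols moved the share with a level above 0 from 63.6% to 75.2%, the median level to 0.868, the rho to -0.392, the share in the highest 1% to 35.4% and the share of TSSs beyond 60 Mb on chromosome 10 among the 3000 from 47.3% to 55.8%. It also turned the ratio of median gene length, 3000 over the rest, from 1.10 to 0.984, and a rest of TSSs with a level above 0 turned it to 0.589. Genes of 5 kb or more gave a rho of -0.311 and shared 6 of the 15 highest genes. Weighting by length gave 19.9% for the highest 1% and shared 9 of the 15. With values above 0 alone, the share beyond 60 Mb on chromosome 10 was 64.2%, since missing TSSs then leave the denominator. The cause of the other changes was not tested. Chromosome 22 had the highest median percentile in all 4 alternatives, while the lowest apart from Y changed between 18, 4 and X. Of 108 recomputed group medians, 84 stayed within the binomial 95% interval of the main median, and of 92 for chromosomes 75 did. These tallies include the setting with 1 TSS per symbol, which hardly changed the data (9913 symbols for 9944 TSSs). The intervals take genes as independent and span the full range in the smallest groups. The tallies are therefore no measure of stability. Of 16 motif differences, 1 turned, that of the YY1 motif, from 3.51 to -0.175 percentage points with the last 100 bases before the start. No paired analysis was possible because the BrU-seq column has no replicates. Depth limits the low end: 517 values rested on fewer than 10 units.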
